A study of Homo sapiens with 11 samples.

Results

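The recognition of the branch site and of the 3′ splice site next to it was followed through 10 genes: U2AF1, U2AF2, SF1, PUF60, SNRPA1, SNRPB2, RBM17, U2SURP, CHERP and DDX46. A probe set of the exon array, that is, a small group of probes within 1 exonic region, was counted for a gene when that gene was its only symbol, and an older name was followed to the current one, as for U2SURP, which the array annotation lists as SR140. The array held 259 such probe sets. Of these, 233 were estimated on all arrays and averaged at least the background level of 7.91 on the log2 scale, and the other 26 were not used. All 10 genes were measured, out of 14520 genes with enough probe sets, and their 233 probe sets belong to 220910 kept over all genes. U2SURP had the most, with 37 of 39 probe sets kept, and PUF60 the fewest, with 13 of 15.

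The cells were T-REx-293, which were derived from HEK293, an embryonic kidney line of human origin, so that tetracycline turns on a plasmid's expression. All of them carried a plasmid encoding green fluorescent protein (GFP) and were given 2.5 µg/mL tetracycline for 72 h. The knockdown group held 6 arrays, 3 from cells with shRNA A and 3 from cells with shRNA B, which are different short hairpin RNAs against HTATSF1, the gene of Tat-SF1. The control group held 5 arrays, 3 from cells with an shRNA against GFP and 2 from cells with an empty vector. The design names biological triplicates of stably expressing cells, and 1 of the 12 samples, an empty vector sample, failed quality control and was left out by the submitters. The p-values below measure the spread between these samples.

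Early in spliceosome assembly, SF1 binds the branch site while the U2AF heterodimer reads the region downstream, its large subunit U2AF2 on the polypyrimidine tract and its small subunit U2AF1 on the AG at the intron's end. SF1 then leaves and the U2 small nuclear ribonucleoprotein (U2 snRNP) pairs with the branch site. The U2 snRNP carries SNRPA1 (protein A′) and SNRPB2 (protein B″), which bind together to a stem loop of U2 snRNA, while DDX46, an RNA helicase and the human homologue of yeast Prp5, acts in its stable attachment. PUF60 is related to U2AF2 and binds uridine-rich tracts, and RBM17 (SPF45), U2SURP and CHERP are associated with the U2 snRNP. Tat-SF1, the depleted protein, is itself a U2 snRNP factor, and in Saccharomyces cerevisiae its homologue Cus2 works together with Prp5.

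SNRPA1, U2AF1 and SNRPB2 were picked from the gene values below and DDX46 from the probe set values, and none of them passed a test. The 250 bases before their annotated starts are printed to show what lies upstream of each. They are from RefSeq, assembly GRCh38.p14, on the strand of the gene and 5′ to 3′. Capitals mark matches to 3 motifs searched on both strands, so that a match on the other strand is printed as its reverse complement. The GC box is GGGCGG, the site of ETS type factors is CCGGAAG, and the CCAAT box is CCAAT.
SNRPA1 (chr15:101295249-101295498, minus strand): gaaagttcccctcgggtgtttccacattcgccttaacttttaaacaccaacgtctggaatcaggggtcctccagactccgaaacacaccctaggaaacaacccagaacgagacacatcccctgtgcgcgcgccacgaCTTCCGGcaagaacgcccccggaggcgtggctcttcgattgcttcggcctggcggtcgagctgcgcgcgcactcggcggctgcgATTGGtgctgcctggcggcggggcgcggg
U2AF1 (chr21:43107571-43107820, minus strand): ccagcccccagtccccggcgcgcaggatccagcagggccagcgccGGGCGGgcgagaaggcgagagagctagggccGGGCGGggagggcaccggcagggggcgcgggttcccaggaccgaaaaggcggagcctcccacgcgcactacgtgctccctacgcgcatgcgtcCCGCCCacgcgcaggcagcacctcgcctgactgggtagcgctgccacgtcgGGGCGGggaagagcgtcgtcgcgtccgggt
SNRPB2 (chr20:16729776-16730025, plus strand): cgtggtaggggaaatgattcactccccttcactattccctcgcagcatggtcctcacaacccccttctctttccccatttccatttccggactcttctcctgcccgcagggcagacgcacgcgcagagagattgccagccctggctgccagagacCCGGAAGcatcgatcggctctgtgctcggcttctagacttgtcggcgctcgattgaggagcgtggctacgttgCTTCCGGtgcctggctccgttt
DDX46 (chr5:134758529-134758778, plus strand): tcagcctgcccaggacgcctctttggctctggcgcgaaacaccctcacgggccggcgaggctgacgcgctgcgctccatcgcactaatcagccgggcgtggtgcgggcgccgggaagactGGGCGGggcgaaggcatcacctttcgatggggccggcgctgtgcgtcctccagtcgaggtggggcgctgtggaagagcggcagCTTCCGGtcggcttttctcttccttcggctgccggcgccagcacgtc

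No marked matches overlap each other. U2AF1 has 4 matches to the GC box and none to the others. SNRPA1 has 1 match to the ETS type site and 1 to the CCAAT box, SNRPB2 has 2 to the ETS type site, and DDX46 has 1 to the ETS type site and 1 to the GC box. Neither TATAAA nor CACGTG is found in the 4 windows. Of 35116 promoter windows of the same length, 42.6% hold the GC box, 8.52% the ETS type site, 32% the CCAAT box, 10.7% TATAAA and 6.34% CACGTG. A match is a description of these letters only.

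The target gene was lower in the knockdown. HTATSF1 had gene values of 8.29, 8.21 and 8.22 with shRNA A and 8.11, 8.19 and 8.21 with shRNA B, against 8.53, 8.63 and 8.49 with the GFP shRNA and 8.54 and 8.32 with the empty vector. A gene value is the median of the gene's kept probe sets on an array, on the log2 scale. All knockdown arrays lay below all control arrays, and the difference was -0.30 (SE 0.0515; limma, adjusted p = 0.0483; exact two-sided permutation p = 0.00216, the smallest that 462 splits of the arrays allow). With the background level subtracted on the linear scale, the knockdown kept 45.1% of the control signal. The adjusted p lay above 0.05 in 15 of 22 alternatives, among them the fit with the suffix described below as a block (0.358) and leaving out any of 10 of the 11 arrays (highest 0.103).

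The arrays were not alike in every technical respect. The mean log2 value of the 3000 brightest genes was 9.258 ± 0.0448 in the knockdown and 9.325 ± 0.0411 in the control (SD, n = 6 and 5; exact two-sided permutation p = 0.0303). A suffix in the array names, whose meaning the labels do not give, marks 4 knockdown arrays, shRNA A replicate 3 and all of shRNA B, and no control array, so suffix and hairpin cannot be told apart for shRNA B. In a fit with the suffix as a block, the difference therefore rests on shRNA A replicates 1 and 2 against the control. Among markers of HEK293 lines, VIM had a gene value of 10.11 in the knockdown and 10.18 in the control, INA 9.37 and 9.43, NEFL 9.11 and 9.23, SALL1 8.36 and 8.56, and PAX2 8.10 and 8.18, the knockdown lower in each of these means. NES had 8.13 in the knockdown and 8.06 in the control, and NEFM lay near the background level at 7.99 and 7.97. None of the 7 passed the test. Markers of blood cells, hepatocytes, fibroblasts and endothelial cells that were measured lay between 7.92 and 8.12 in the control. Of the measured markers of carcinoma lines, EPCAM had 8.64 in the knockdown and 8.81 in the control, KRT7 8.39 and 8.42, KRT5 8.05 and 8.10, and CEACAM5 7.96 and 7.94. In bulk RNA, fewer cells of a kind and less RNA per cell cannot be told apart.

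None of the 10 genes passed the test between knockdown and control (limma, adjusted p under 0.05 over all genes), against 0.227% of all genes. With no adjustment, 2 of 10 had a p under 0.05, against 15.2% of all genes; both were lower in the knockdown (12.8% of all genes lower, 2.4% higher). SNRPA1, U2AF2 and U2AF1 had the largest negative differences, -0.24, -0.18 and -0.15, and SNRPB2 had the largest positive one, 0.13. The means of 8 of the 10 genes were lower in the knockdown, against 67.2% of all genes, and the median difference of the 10 was -0.05, against -0.02 for all genes. In each of the 10 genes the arrays of both groups overlapped with all kept probe sets, and over all genes 2.23% had groups that did not overlap.

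The small U2AF subunit came closest to a separation of the groups. U2AF1 had gene values of 8.95, 8.98 and 8.88 with shRNA A and 8.95, 9.05 and 8.95 with shRNA B, against 9.10, 9.14 and 9.03 with the GFP shRNA and 9.30 and 9.00 with the empty vector. Of the 6 knockdown arrays, 5 lay below every control array. The remaining one, shRNA B replicate 2, lay above empty vector replicate 2 and GFP shRNA replicate 3 and below the other controls. The group means were 8.96 ± 0.0565 in the knockdown and 9.11 ± 0.12 in the control (SD, n = 6 and 5), a difference of -0.15 (SE 0.0588; 95% interval -0.28 to -0.03; limma, adjusted p = 0.225). The difference was -0.18 with shRNA A and -0.13 with shRNA B, and against the GFP shRNA alone, for both shRNAs at once, it was -0.13. With the minimum level of probe sets raised to 8.41 it was -0.05 (limma, adjusted p = 0.784). RefSeq also lists a gene with the synonym U2AF1L5, a close copy of U2AF1, and the probe sets may not tell the copies apart.

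The large subunit had a difference of the same sign and wider spread. U2AF2 had gene values of 9.07, 9.23 and 9.18 with shRNA A and 9.19, 9.43 and 9.24 with shRNA B, against 9.13, 9.33 and 9.50 with the GFP shRNA and 9.37 and 9.71 with the empty vector. GFP shRNA replicate 1 lay among the knockdown arrays and shRNA B replicate 2 among the controls. The means were 9.22 ± 0.118 in the knockdown and 9.41 ± 0.216 in the control (SD, n = 6 and 5), a difference of -0.18 (SE 0.0888; 95% interval -0.37 to 0.00; limma, adjusted p = 0.336). The control constructs differed from each other by -0.22, GFP shRNA minus empty vector, which is more than the difference between knockdown and control, and against the GFP shRNA alone the knockdown difference was -0.10.

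SF1 and PUF60, which bind the branch site and uridine-rich tracts, had small differences and unlike spreads. SF1 ranged between 9.26 and 9.49 in the knockdown (median 9.40) and between 9.27 and 9.50 in the control (median 9.43), nearly the same span, with a difference of -0.02 (95% interval -0.15 to 0.11; limma, adjusted p = 0.901). PUF60 had gene values of 8.89, 8.79 and 8.76 with shRNA A and 8.88, 8.76 and 9.34 with shRNA B, against 9.27, 8.90 and 9.02 with the GFP shRNA and 8.86 and 8.77 with the empty vector. The highest value of either group was shRNA B replicate 3, and the PUF60 difference of -0.06 (95% interval -0.28 to 0.16; limma, adjusted p = 0.819) became -0.15 without that array and 0.01 without GFP shRNA replicate 1. It was -0.20 with the higher minimum level of 8.41 (limma, adjusted p = 0.189) and -0.16 against the GFP shRNA alone (limma, adjusted p = 0.55). The spread of PUF60 within constructs, 0.196, was the widest of the 10 genes, and the median over all genes was 0.061.

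**Figure D1:**
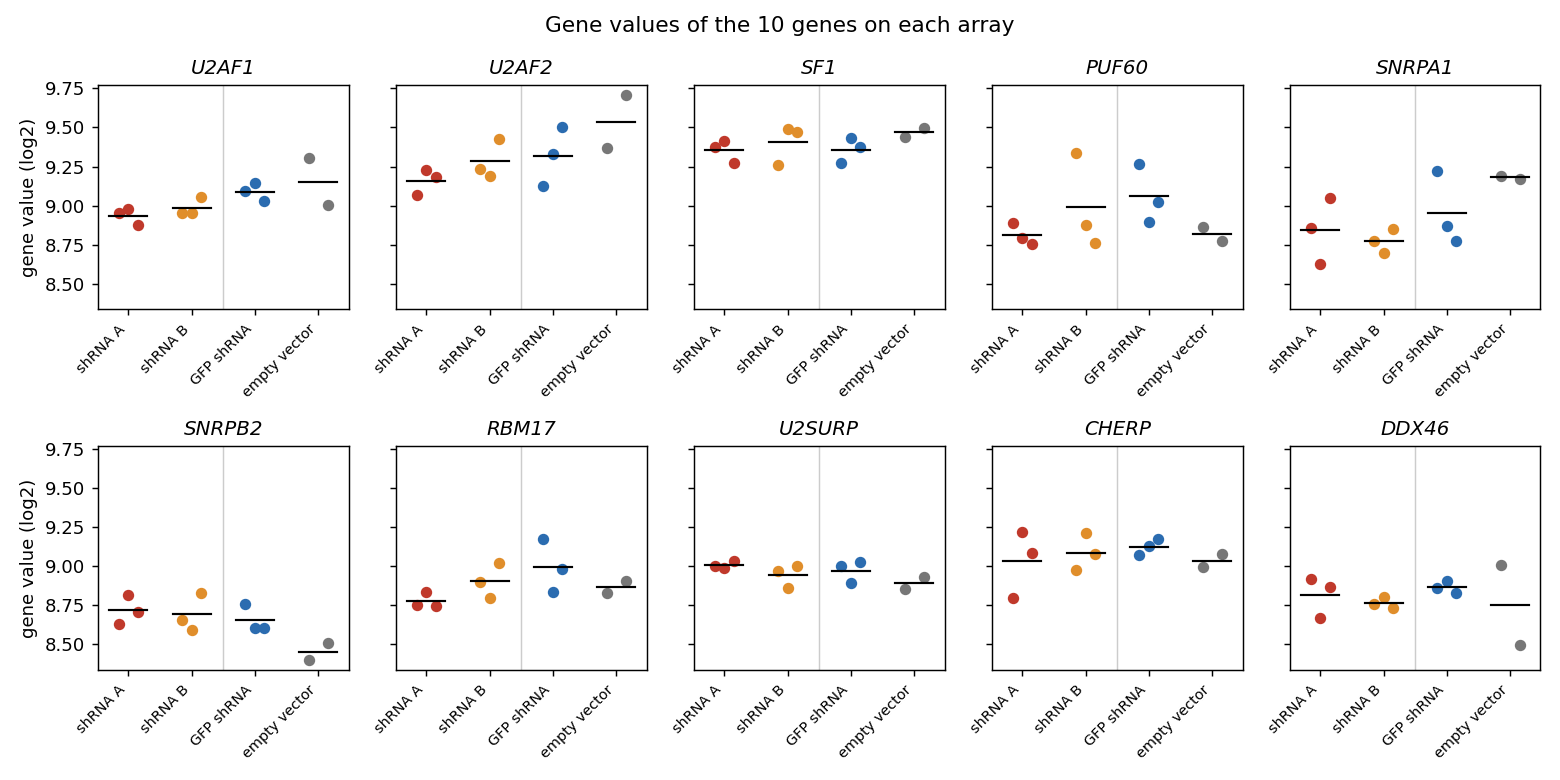
Gene value (log2) of each of the 10 genes on each of the 11 arrays, by construct. Points are arrays and horizontal lines are construct means, and the points of knockdown (shRNA A, shRNA B) and control (GFP shRNA, empty vector) share part of their range in every panel. U2AF1 comes closest to a separation, with 5 of 6 knockdown arrays below every control array.

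The U2 snRNP proteins SNRPA1 and SNRPB2, which bind U2 snRNA together, had differences of opposite sign. SNRPA1 had gene values of 8.85, 8.62 and 9.05 with shRNA A and 8.70, 8.85 and 8.78 with shRNA B, against 9.22, 8.87 and 8.77 with the GFP shRNA and 9.19 and 9.17 with the empty vector. Of the control arrays, 3 lay above every knockdown array, and GFP shRNA replicates 2 and 3 lay among the knockdown arrays. The means were 8.81 ± 0.148 in the knockdown and 9.04 ± 0.208 in the control (SD, n = 6 and 5), a difference of -0.24 (SE 0.0899; 95% interval -0.43 to -0.05; limma, adjusted p = 0.222). In size this exceeded the differences of 98.4% of all genes. That rank takes no account of spread or level. The spread of SNRPA1 within constructs was 0.175, against a median of 0.061 over all genes. The median control level of all genes was 8.23, below that of SNRPA1. The signal above background was 71.9% of the control level, 76.1% with shRNA A and 67.7% with shRNA B. Against the GFP shRNA alone the difference was -0.15 (limma, adjusted p = 0.524).

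SNRPB2 had gene values of 8.63, 8.82 and 8.71 with shRNA A and 8.59, 8.83 and 8.65 with shRNA B, against 8.76, 8.61 and 8.61 with the GFP shRNA and 8.40 and 8.51 with the empty vector. The 2 empty vector arrays were the lowest of all 11, and the GFP shRNA arrays lay within the knockdown range. The means were 8.71 ± 0.0986 in the knockdown and 8.58 ± 0.134 in the control (SD, n = 6 and 5), a difference of 0.13 (SE 0.0641; 95% interval -0.01 to 0.27; limma, adjusted p = 0.356). Against the GFP shRNA alone the difference was 0.05, and with a higher minimum level for probe sets (8.41) it was -0.01 (limma, adjusted p = 0.935).

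Of the other U2-associated factors, U2SURP and CHERP lay close to their control level, and RBM17 had a larger difference. RBM17, an alternative splicing factor, had a mean of 8.84 ± 0.105 in the knockdown and 8.95 ± 0.144 in the control (SD, n = 6 and 5), a difference of -0.10 (95% interval -0.25 to 0.04; limma, adjusted p = 0.507). Its difference was -0.17 with shRNA A, and -0.04 with shRNA B, and with the higher minimum level it was -0.18 (limma, adjusted p = 0.176). Against the GFP shRNA alone the RBM17 difference was -0.16 (limma, adjusted p = 0.394). U2SURP ranged between 8.86 and 9.03 in the knockdown (median 8.99) and between 8.86 and 9.03 in the control (median 8.93), a difference of 0.03 (95% interval -0.07 to 0.14). CHERP ranged between 8.80 and 9.22 in the knockdown (median 9.08) and between 9.00 and 9.17 in the control (median 9.08), a difference of -0.03 (95% interval -0.18 to 0.12). The U2SURP ranges nearly coincided, and the knockdown range of CHERP, with its lowest value on shRNA A replicate 1, enclosed the control range.

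The helicase DDX46 was flat as a gene. It ranged between 8.67 and 8.92 in the knockdown (median 8.78) and between 8.49 and 9.01 in the control (median 8.86), so the knockdown arrays lay inside the range of the control arrays, whose ends were the 2 empty vector arrays. The difference was -0.03 (95% interval -0.19 to 0.13; limma, adjusted p = 0.894). Leaving out 1 array at a time gave between -0.11 without empty vector replicate 2 and 0.02 without empty vector replicate 1.

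**Figure D2:**
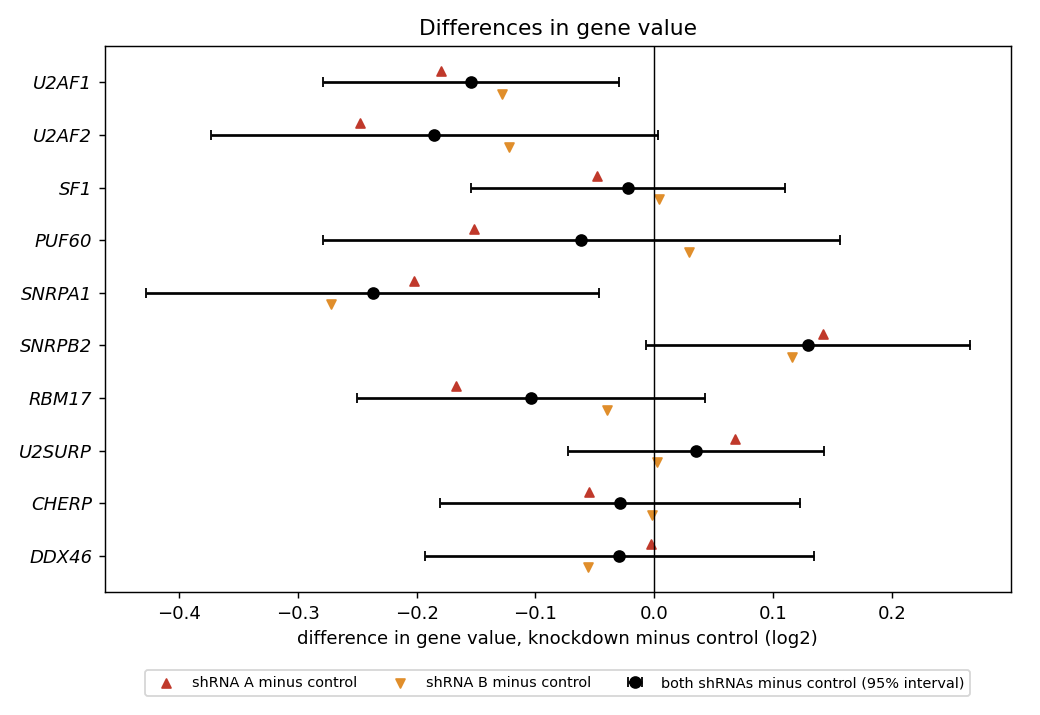
Difference in gene value (log2), knockdown minus control, for the 10 genes. Black points with bars are both shRNAs together with the 95% interval of the linear model, and triangles are shRNA A and shRNA B alone, each minus the same control. The intervals of SNRPA1 and U2AF1 lie below 0 before adjustment over all genes.

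With each shRNA by itself, 0 of the 10 genes passed the test against the control in either case (limma, adjusted p under 0.05). Of all genes 0.00689% passed it for shRNA A, and 0.062% did so in the shRNA B arrays. At an unadjusted p under 0.05 the count was 2 for shRNA A, U2AF1 and U2AF2, against 10.8% of all genes, and 1 for shRNA B, SNRPA1, against 13.3%. These comparisons share their control arrays. The arrays without the suffix hold 2 of shRNA A and all 5 controls, and among them alone, an alternative chosen after seeing the data, the difference was -0.15 for U2AF1, -0.26 for U2AF2, -0.305 for SNRPA1 and 0.15 for SNRPB2, with 0 of the 10 past the test. The fit with the suffix as a block gives the difference between these same arrays, so it is not a separate check. The test of shRNA B minus shRNA A called 0 of the 10 and 0% of all genes (limma, every adjusted p 0.999), and at an unadjusted p under 0.05 it held 0 of the 10, against 4.41% of all genes. The largest of these differences was that of PUF60, 0.18 (95% interval -0.11 to 0.47), with RBM17 at 0.13 (95% interval -0.07 to 0.32) and U2AF2 at 0.12 (95% interval -0.13 to 0.38), so the intervals include differences of the size seen between knockdown and control.

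The control constructs were compared in the same way to show the background between cell populations that lack an HTATSF1 shRNA. GFP shRNA minus empty vector was 0.24 for PUF60, 0.21 for SNRPB2, -0.23 for SNRPA1, -0.22 for U2AF2 and -0.06 for U2AF1. None of the 10 passed the test (limma, adjusted p under 0.05), against 0.00689% of all genes, and at an unadjusted p under 0.05 there was 1, SNRPB2, against 4.48%. For 8 of the 10 genes the difference between the control constructs was larger in size than that between knockdown and control, and for the other 2, U2AF1 and SNRPA1, it was smaller. The control comparison rests on 3 and 2 arrays. Its SE was the larger one in each of the 10 genes, as 0.125 against 0.0888 for U2AF2. The sizes are thus not on an equal footing, and the share over all genes is not given.

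Single probe sets were then compared within each gene. Of the 233 probe sets, 142 (60.9%) had a lower mean in the knockdown, against 61.6% over all genes. SNRPA1 had 18 of 22 lower, U2AF2 15 of 16 and U2AF1 17 of 21, while SNRPB2 had 4 of 15 and U2SURP 11 of 37. Among probe sets at or above 8.41 on the log2 scale, all 13 of SNRPA1 were lower with a median difference of -0.25, all 13 of U2AF2 with -0.12, and 13 of 14 of U2AF1 with -0.13. The dimmer 9 of SNRPA1 had a median of -0.01. Over the brighter probe sets of the 10 genes 64.9% were lower, which is also the share over all genes.

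In 3 of the genes some probe sets have numbers far from the rest, so they may lie at another place in the genome. Of the kept probe sets these were 2 of 21 in U2AF1, 5 of 22 in SNRPA1 and 3 of 15 in SNRPB2. Gene values were also taken from the longest run of numbers alone, an alternative chosen after seeing the data. U2AF1 then had 8.85, 8.68 and 8.84 with shRNA A and 8.81, 8.95 and 8.89 with shRNA B, against 9.06, 9.14 and 9.03 with the GFP shRNA and 9.15 and 9.00 with the empty vector. All knockdown arrays lay below all control arrays, and the difference was -0.24 in place of -0.15 (limma, adjusted p = 0.0692). Over all genes, with all kept probe sets, 2.23% had groups that did not overlap. The median over the 19 kept U2AF1 probe sets of the longest run was -0.05. For SNRPA1 the difference was -0.12 in place of -0.24 (limma, adjusted p = 0.333), and the median over the 17 kept probe sets of its longest run was -0.02. For SNRPB2 it was 0.08 in place of 0.13 (limma, adjusted p = 0.587). The order of SNRPA1 and U2AF1 by size of difference thus depends on these probe sets.

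In 6 of the 233 probe sets (2.58%) the knockdown and control arrays did not overlap, against 1.86% of all kept probe sets, and all 6 were lower. All 6 were among the 171 probe sets at or above 8.41, and over all genes 2887 of 92129 at that level did not overlap. How many of those over all genes were lower is not given. The 6 probe sets were singled out after their values were seen. In SNRPA1 they were 3642168, with a mean of 10.01 ± 0.0836 in the knockdown and 10.46 ± 0.192 in the control, and 3642171, with 9.36 ± 0.15 and 9.85 ± 0.286 (SD, n = 6 and 5). U2AF1 had 3934024, with 10.45 ± 0.0501 in the knockdown and 10.71 ± 0.131 in the control. The other 3 were 3377069 of SF1, 3233559 of RBM17 and 3853954 of CHERP, with differences of -0.20, -0.33 and -0.34.

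**Figure D3:**
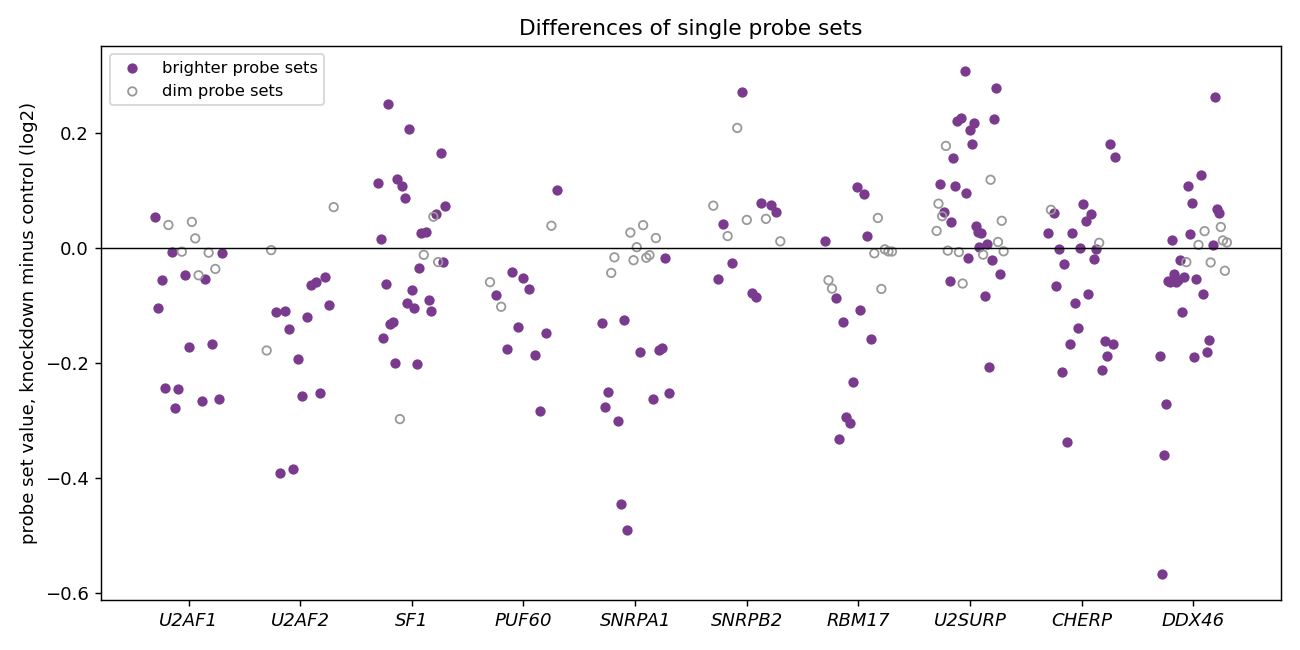
Difference in probe set value (log2), knockdown minus control, for the 233 kept probe sets of the 10 genes. Filled points are probe sets with a mean at or above 8.41 and open points are dimmer ones. The brighter probe sets of SNRPA1 and U2AF2 all lie below 0, and 19 of 25 brighter probe sets of U2SURP lie above it.

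Exon usage was followed through the splicing index, the log2 value of a probe set less that array's gene value. None of the 233 probe sets passed the test between knockdown and control (limma, adjusted p under 0.05 over all probe sets; lowest 0.0774), against 0.00317% of all. With no adjustment 49 (21%) had a p under 0.05, against 11.8% of all probe sets. The counts were 9 of 22 for SNRPA1, 7 of 34 for DDX46, 7 of 37 for U2SURP, 6 of 21 for U2AF1, 6 of 29 for SF1, 4 of 20 for RBM17, 4 of 26 for CHERP, 3 of 15 for SNRPB2, 2 of 16 for U2AF2 and 1 of 13 for PUF60. In a gene whose bright probe sets are lower, dim probe sets near the background level have a higher index, and in SNRPA1 the probe set with the largest difference, 3642176, was such a one, with values of 7.97 in the knockdown and 7.93 in the control and an index difference of 0.28 (SE 0.0932; adjusted p = 0.275). In U2AF1 all the counted probe sets but 3588379 were dim, with value differences between -0.0076 and 0.046. Probe sets of a gene also share its gene value on each array, so the counts are not of independent changes.

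By shRNA, 0 of the 233 passed against the control for shRNA A, for shRNA B and for shRNA B minus shRNA A, and 0 passed for GFP shRNA minus empty vector, each against 0% of all probe sets (limma, adjusted p under 0.05). At an unadjusted p under 0.05 there were 31 for shRNA A, against 9.48% of all probe sets, and 32 for shRNA B, against 10.3%. Between the shRNAs there were 12, against 5.52%, and between the control constructs 10, against 4.48%.

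DDX46 held the lowest adjusted p of the 10 genes. Its probe set 2829491, the second in order of number among the 34 kept, had a splicing index of -0.19, -0.01 and 0.04 with shRNA A and -0.35, -0.35 and -0.15 with shRNA B, against 0.15, 0.51 and 0.43 with the GFP shRNA and 0.50 and 0.27 with the empty vector. All knockdown arrays lay below all control arrays, and the arrays of shRNA B and shRNA A overlapped. The difference was -0.54 (SE 0.0885; 95% interval -0.73 to -0.34; limma, adjusted p = 0.0774). It was -0.42 with shRNA A, -0.65 with shRNA B and -0.02 between the control constructs. In a fit that blocks on the suffix, and so rests on shRNA A replicates 1 and 2, the difference was -0.47 (limma, adjusted p = 0.46). The log2 values of this probe set were 8.62 ± 0.191 in the knockdown and 9.19 ± 0.304 in the control (SD, n = 6 and 5), and in these the groups overlapped.

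The next kept probe sets in order of number had the same sign; they and 2829533 were singled out after their values were seen. Probe set 2829493 had an index of 1.12, 1.24 and 1.06 with shRNA A and 1.28, 1.23 and 1.10 with shRNA B, against 1.53, 1.65 and 1.37 with the GFP shRNA and 1.52 and 1.44 with the empty vector, a difference of -0.33 (SE 0.0612; limma, adjusted p = 0.101). Probe set 2829494 had an index of -0.28, -0.29 and -0.32 with shRNA A and -0.33, -0.38 and -0.43 with shRNA B, against -0.03, -0.13 and -0.19 with the GFP shRNA and -0.14 and 0.00 with the empty vector, a difference of -0.24 (SE 0.0406; limma, adjusted p = 0.0819). In both, every knockdown array lay below every control array by index, while the log2 values of the groups overlapped. The first probe set in order, 2829490, had a difference of -0.16 (limma, adjusted p = 0.43) and overlapping groups.

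Further along DDX46, 2829533 went the other way, with an index of 0.11, 0.20 and 0.39 with shRNA A and 0.02, 0.29 and 0.10 with shRNA B, against -0.02, -0.11 and -0.08 with the GFP shRNA and -0.09 and -0.24 with the empty vector, a difference of 0.29 (SE 0.0646; limma, adjusted p = 0.132). Here every knockdown array lay above every control array by index, while the log2 values of the groups overlapped. With these, 4 of the 34 DDX46 probe sets (11.8%) had an index whose groups did not overlap, against 1.45% of all probe sets, and the remaining such probe set of the 10 genes was 2646104 of U2SURP, with a difference of 0.24 (SE 0.0628; limma, adjusted p = 0.175). Of 3705 genes with at least 20 kept probe sets, 31 (0.837%) had at least 4 such probe sets, and of the 7 of the 10 genes with that many probe sets, DDX46 was 1. The cutoff of 4 is the count in DDX46 itself, and the probe sets of a gene share its gene value on each array. The share is therefore a description only. The DDX46 differences kept their sign under every alternative tried, and no alternative brought one past the threshold. The probe sets are ordered by number only, since the build of their coordinates is not named.

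**Figure D4:**
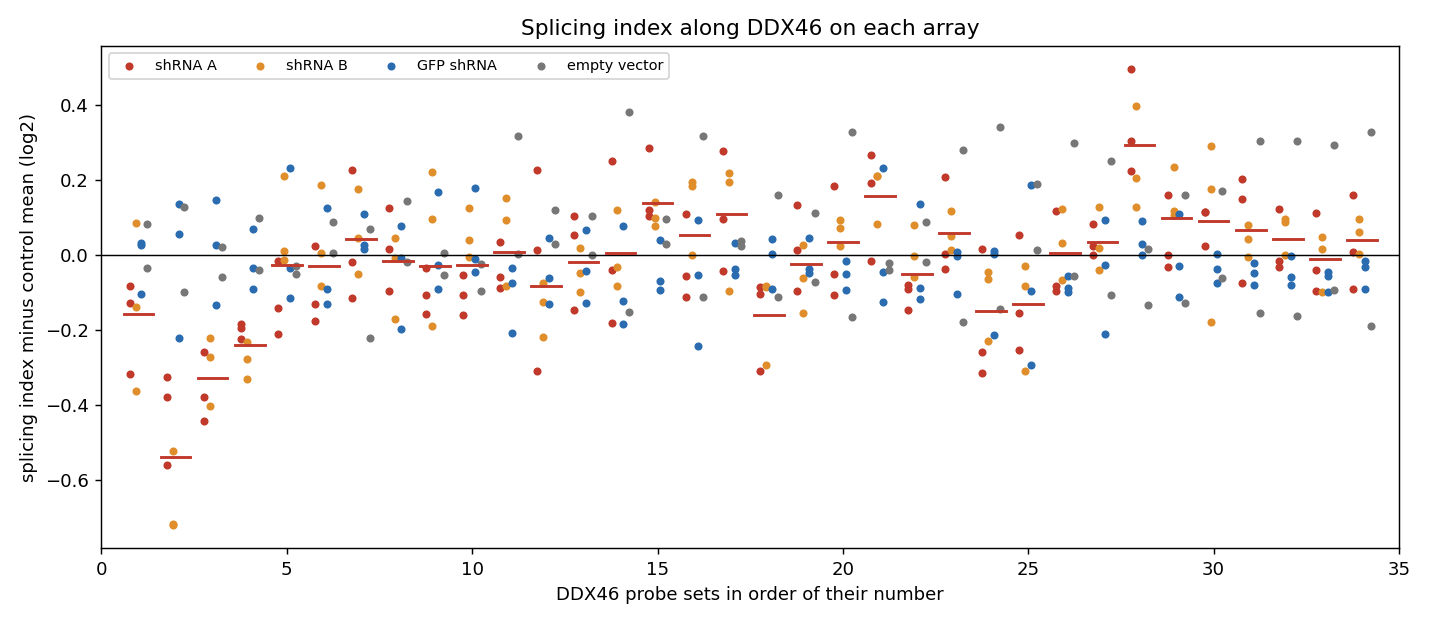
Splicing index of the 34 kept DDX46 probe sets in order of their number, as the difference from the mean of the 5 control arrays (log2). Points are arrays coloured by construct and red lines are means of the 6 knockdown arrays. Probe sets 2829491, 2829493 and 2829494, near the left end, have knockdown means of -0.54, -0.33 and -0.24, and one further along has 0.29.

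The largest index differences in the other genes were smaller. They were -0.31 in CHERP (3853954), -0.28 in SF1 (3377058), 0.27 in U2SURP (2646074), 0.26 in U2AF2 (3842372), -0.23 in RBM17 (3233559), -0.22 in PUF60 (3157835), -0.21 in SNRPB2 (3877793) and 0.21 in U2AF1 (3588379). None passed the test, with limma's adjusted p between 0.208 and 0.476, and in each the groups overlapped. The U2AF1 probe set is 1 of the 2 whose numbers lie far from the rest of that gene. In RBM17 the index difference was -0.34 with shRNA B and -0.11 with shRNA A, and shRNA B minus shRNA A was -0.23 (limma, adjusted p = 0.883).

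Across the 11 arrays the 10 genes did not move as a block. Over their 45 pairs the median Pearson correlation of gene values was 0.04, with 3 pairs above 0.5 and 4 below -0.5. The highest was 0.67 for SNRPB2 and U2SURP and the lowest -0.66 for SF1 and PUF60, while SNRPA1 and U2AF1, both lower on average in the knockdown, had 0.44. Within constructs these 3 correlations were 0.53, -0.82 and -0.02, so SNRPA1 and U2AF1 did not vary together there. The points share arrays and differ in brightness, and the correlation with array brightness was 0.70 for RBM17, 0.61 for SNRPA1, 0.54 for U2AF1 and -0.42 for SF1. The part of brightness in the differences was not tested.

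The genes outside the 10 whose gene values followed U2AF1 most closely over the 11 arrays were ATOX1 (r = 0.938), MFHAS1 (0.914) and PQBP1 (0.914). For U2AF2 they were PPP1R15B (0.959), ZSWIM9 (0.917) and ATP6V0D1 (0.914). For SF1 they were IL1RAPL1 (0.9), KRT9 (0.874) and SRGN (0.871), of which IL1RAPL1 and SRGN lay at 7.95 in the control, near the background level. These are descriptions over 11 arrays picked as the highest among 14520 genes.

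Other factors of the same step were read from a list of 32 genes of the U2 and U1 snRNPs and of 3′ splice site recognition, of which 29 were measured. None passed the test between knockdown and control, against 0.227% of all genes, and 7 were below an unadjusted p of 0.05 and lower in the knockdown, against 12.8% of all genes. The median difference was -0.07, against -0.02 for all genes. The lowest were 2 proteins of the U1 snRNP, which recognises the 5′ splice site. SNRPA (protein A of the U1 snRNP), which is similar in sequence to SNRPB2, had a mean of 8.97 ± 0.122 in the knockdown and 9.28 ± 0.144 in the control (SD, n = 6 and 5), a difference of -0.30 (SE 0.0737; limma, adjusted p = 0.0812). SNRNP70, the other one, had 8.70 ± 0.0685 in the knockdown and 8.91 ± 0.101 in the control, a difference of -0.20 (SE 0.0547; limma, adjusted p = 0.104), with groups that did not overlap. The groups of RBM10, which is also on the list, did not overlap either, with a difference of -0.14 (limma, adjusted p = 0.162). Over all genes 2.23% had groups that did not overlap. The highest were SF3A1, a subunit of the U2 snRNP, at 0.08 and SMNDC1 (SPF30) at 0.06 (limma, adjusted p = 0.631 and 0.681).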

How the data were processed

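Gene and exon values were analysed for the 10 genes on 11 Affymetrix Human Exon 1.0 ST arrays. The deposited values are on a log2 scale, with 1399022 probe sets, and the sources used here do not give the software, the background correction or normalization, or the build. Per the labels' protocols, total RNA was hybridised after whole transcript labelling. Array medians lay between 7.902 and 7.905, and each array lacked an estimate for 13190 to 15431 probe sets.

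Of the probe sets, 355799 carried 1 symbol in the platform annotation, 15195 carried several and were not used, and 1028028 had no entry. Symbols were matched to RefSeq synonyms (GRCh38.p14): 16450 were current, 2876 were updated and 210 were kept. A probe set was kept if it had 1 symbol, was estimated on all arrays and averaged at least the median of all probe set means (7.907), and a gene needed 4 of them, which left 220910 probe sets and 14520 genes (median 12 probe sets a gene). The gene value was their median on each array. Gene values and splicing indices were tested over all genes or probe sets with limma 3.58.1 (lmFit, eBayes with trend) in R 4.3.3, with Benjamini-Hochberg adjustment and a threshold of 0.05. The scripts were tested on simulated data. The number of arrays limits the precision.

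All 10 genes are named. Of the probe sets, the one with the largest index difference in each gene is named, of the other splicing genes the 2 highest and 2 lowest, and for U2AF1, U2AF2 and SF1 the 3 genes with the highest correlation. RBM10 is named because its groups did not overlap. The genes and lists were chosen with earlier results of these data known. Alternatives changed the minimum level, gene summary, normalization, trend, control group, blocks and arrays.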

Additional observations from a re-analysis of the deposited data

Results flagged for a closer look

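Of 22 groups examined, the knockdown and the control arrays of each of the 10 genes and of HTATSF1, 2 held an array far from the others of its group, and chance marks about 1 in 20 such groups. PUF60 had 9.34 on shRNA B replicate 3, above the other 5 knockdown arrays, of which the highest was 8.89. Without that array the PUF60 difference between knockdown and control was -0.15 in place of -0.06 (limma, adjusted p = 0.412). U2SURP had 8.86 on shRNA B replicate 1, below the other 5 knockdown arrays, and without that array its difference was 0.06 in place of 0.03 (limma, adjusted p = 0.674).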

How the results depend on the processing

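None of the 10 genes was called under any alternative, by gene value or splicing index, in any comparison (limma). Between knockdown and control 0 to 3 of them were at an unadjusted p under 0.05. The differences of U2AF1 (-0.24 to -0.05), U2AF2 (-0.26 to -0.07), SNRPA1 (-0.31 to -0.12), RBM17 (-0.18 to -0.04) and U2SURP (0.0038 to 0.13) kept their sign. SF1 turned to 0.0128 with no filter on dim probe sets, 0.0483 with cyclic loess and 0.0217 against the GFP shRNA alone. SNRPB2 turned to -0.0128 with the higher minimum level. With cyclic loess CHERP turned to 0.0352 and DDX46 to 0.0272. Leaving out 1 array gave -0.0543 to 0.0025 for SF1, -0.1485 to 0.0145 for PUF60, -0.0608 to 0.0245 for CHERP and -0.111 to 0.0182 for DDX46. The arrays that turned the sign were empty vector replicate 2, shRNA B replicate 3 and shRNA A replicate 3 for SF1, GFP shRNA replicate 1 for PUF60, shRNA A replicate 1 for CHERP and empty vector replicate 1 for DDX46. The cause was not tested.

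The median difference of the 10 genes was 0.0129 with cyclic loess and -0.1023 with the suffix as a block, which rests on shRNA A replicates 1 and 2. Leaving out 1 array gave -0.1092 (empty vector replicate 2) to -0.037. HTATSF1 lost its call with no filter (-0.252, adjusted p = 0.094), cyclic loess (-0.2572, 0.0531), the replicate block (-0.2974, 0.0626) and the suffix block (-0.2537, 0.358). Leaving out 1 array gave -0.3431 to -0.2648, and the call held without empty vector replicate 2 alone. Leaving out both GFP shRNA replicate 1 and shRNA B replicate 1, chosen after seeing the data as the ends of the first principal component, gave -0.2699 (0.117) for HTATSF1 and 0.0194 for PUF60.

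Over all genes 0 (suffix block, and without both end arrays) to 252 (higher minimum level) were called in place of 33. The count was 140 for the mean of probe sets, 86 without the trend, 23 with quantile normalization, 19 with no filter, 10 with the replicate block, 7 with loess, 2 against the GFP shRNA alone and 2 to 67 without 1 array. Over all probe sets the index gave 0 to 95 calls in place of 7. The main fits did not pair arrays by replicate number. Over 15 same-numbered pairs the deviations correlated at -0.147 to 0.267, 5 of them above 0.1, and 4 of 11 arrays correlated best with their own number. These values have no chance level beside them, so they do not settle whether the numbers pair the arrays. Loess was not run for the splicing index, and the comparison of the control constructs needs the empty vector. Changes of dim probe sets may be compressed near the background level.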
